A study of Rattus norvegicus with 4 samples.

Results

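The genes described here are regulators of alternative splicing that act in heart and skeletal muscle, measured by ribosome profiling in rat cardiac myocytes after knockdown of Cpeb4. A list of 10 symbols was matched exactly to the gene symbols of the deposited count tables. It held Rbfox1, Rbfox2, Mbnl1, Mbnl2, Rbm20, Rbm24, Celf1, Celf2, Qki and Ptbp1. Of these, 9 matched 1 gene each among 22250 genes, and Qki was not analysed here because no row carried that symbol.

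The cells were ventricular cardiomyocytes from hearts of Wistar rats aged 1 to 2 days, isolated with trypsin and a Percoll gradient and kept in culture. The siCpeb4 group (2 libraries) received an siRNA against Cpeb4 and the control group (2 libraries) received a control siRNA, with silencing for 72 h. The labels of all 4 libraries also mention Torin1, an mTOR inhibitor, at 250 nM for 24 h. They do not say which libraries it applies to, so whether the groups received it is unknown. Footprints are the short mRNA fragments that ribosomes protect from RNase I. A footprint count depends on both the amount of an mRNA and its ribosome load, and these cannot be told apart here.

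Alternative splicing joins different exons of one gene into different mRNAs, and heart muscle changes many such choices around birth. RBFOX proteins bind UGCAUG elements beside exons and promote inclusion or skipping depending on which side they bind. MBNL and CELF proteins act on many of the same exons in opposite directions. RBM20 represses exons of titin and of calcium-handling genes, RBM24 promotes inclusion of muscle exons, and PTBP1 is a widely expressed repressor of muscle and neuronal exons.

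Footprints counted in genes ranged from 4889212 to 5910911 in the siCpeb4 libraries and from 3554011 to 5863879 in the control libraries. The siRNA target Cpeb4 (ENSRNOG00000033169) had 8.18 and 9.98 CPM (counts scaled to a library total of 1000000) in the siCpeb4 libraries, against 59.9 and 71.2 CPM in the control libraries. Its log2 fold change was -2.86 ± 0.17 (SE; edgeR adjusted p = 1.57e-09). The summed level of 13 cardiomyocyte markers was 66672 to 75226 CPM in siCpeb4 libraries and 68325 to 72861 CPM in controls. Of these 13, edgeR called none, and 10 had negative and 3 positive log2 fold changes (median -0.10). Their highest member, Myh6, encodes the alpha myosin heavy chain. The summed level of 13 fibroblast markers was 13997 to 14171 CPM in siCpeb4 libraries and 18182 to 19853 CPM in controls. Of the 12 tested, 3 (Col1a1, Fn1 and Fbln2) fell, or 25%, against 1.87% of all genes tested. The others were not called, and of the 12, 10 had negative and 2 positive log2 fold changes (median -0.25). Much of the sum came from Col1a1, at 6072 and 5374 CPM in siCpeb4 libraries and 8586 and 7867 CPM in controls. Fn1 had 2358 and 2995 CPM in siCpeb4 libraries and 4559 and 3948 CPM in controls. In a bulk culture, fewer cells of a type, less RNA per cell and a lower ribosome load per mRNA cannot be told apart. One fibroblast marker, Col1a2, was listed at 0 in every library.

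Rbfox2 was the only one of the 9 regulators to pass the test. In the edgeR quasi-likelihood test over 11335 genes it rose 1.37-fold, while the other 8 did not pass (adjusted p from 0.392 to 0.924) and had unadjusted p-values of 0.0826 or more. Of all genes tested, 3.41% were called at an adjusted p under 0.05, with 1.54% higher and 1.87% lower, so 1 call among 9 genes is too few to set the regulators apart. The median log2 fold change of the 9 was 0.03, against -0.00310 for all genes tested. Of the 9, 5 had positive and 4 negative log2 fold changes. All 9 passed the filter on low counts. The difference in response between Rbfox2 and the other regulators was not tested, and a p that misses the threshold does not show that a gene did not change.

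**Figure D1:**
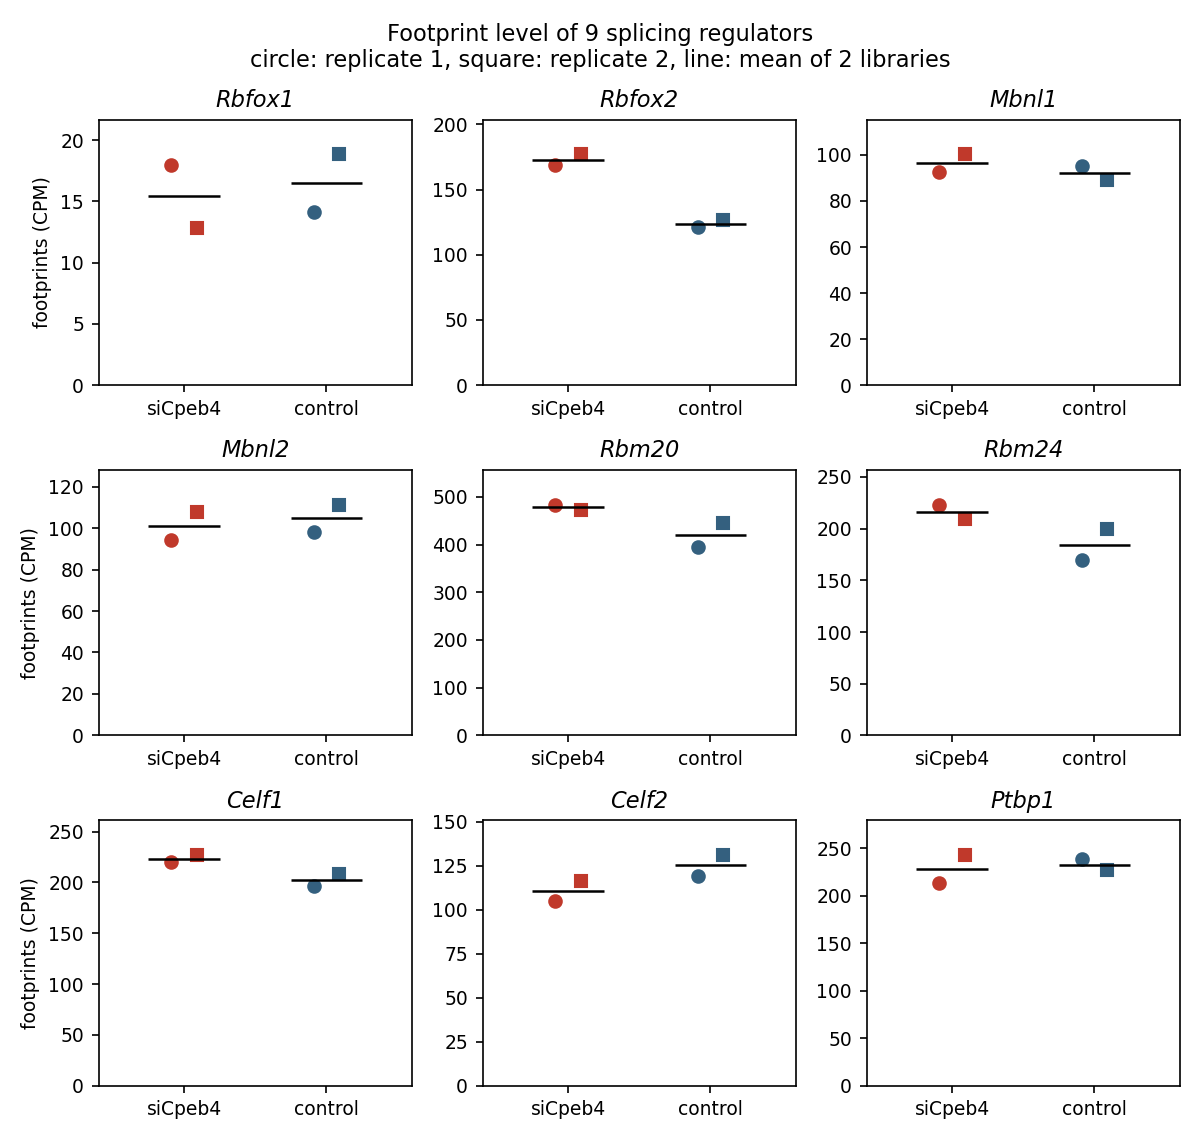
Footprint level in CPM (y axis, from 0) of each of the 9 matched splicing regulators in siCpeb4 and control libraries. Circles are replicate 1, squares replicate 2 and lines the mean of 2 libraries. Rbfox2 lies at 169 and 177 CPM in siCpeb4 libraries and at 121 and 127 CPM in controls, and Rbfox1, Mbnl1, Mbnl2 and Ptbp1 overlap between groups.

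RBFOX2 (Rbfox2, ENSRNOG00000004688) is an RBFOX protein expressed in many tissues and needed for normal heart function in mice. It had 826 and 1047 counts in the siCpeb4 libraries, against 709 and 450 in the controls. Scaled to the library total, this was 169 and 177 CPM in siCpeb4 libraries and 121 and 127 CPM in controls. The groups did not overlap, and each siCpeb4 library was above both controls. Its mean level was 173 ± 5.79 CPM in siCpeb4 libraries and 124 ± 4.04 CPM in controls (SD, n = 2 each). The log2 fold change was 0.46 ± 0.11 (SE), with a 95% interval of 0.23 to 0.68 and an edgeR adjusted p of 0.0181.

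For Rbfox2 the nearest libraries of the groups differed by 0.42 on the log2 scale of CPM, and the libraries within a group differed by at most 0.07. It was the only regulator of the 9 with a gap between groups larger than any gap within a group, which held for 17.2% of all genes tested with no count of 0. By p, Rbfox2 ranked 230 among 11335 genes, and 13.0% of genes had a larger fold change in size. The call did not survive every smaller design. The edgeR adjusted p was 0.248 without control replicate 1, 0.0767 without control replicate 2 and 0.0689 without siCpeb4 replicate 2, with log2 fold changes from 0.41 to 0.50. Without siCpeb4 replicate 1 it was 0.0315. The counts of siCpeb4 replicate 2 were taken from a narrower range of read lengths (29 to 33 nt, against 29 to 34 nt in the others).

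RBFOX1 (Rbfox1, ENSRNOG00000002827) is the paralog found mainly in heart, skeletal muscle and brain. It was the least covered of the 9, with 88 and 76 counts in the siCpeb4 libraries and 83 and 67 in the controls. Its level was 18.0 and 12.9 CPM in siCpeb4 libraries, against 14.2 and 18.9 CPM in controls. Each group held 1 high and 1 low library, and the groups overlapped. The exact 95% Poisson interval, which covers counting error only, was 14.4 to 22.2 CPM in siCpeb4 replicate 1 and 10.1 to 16.1 CPM in siCpeb4 replicate 2. In the controls it was 11.3 to 17.5 CPM in replicate 1 and 14.6 to 23.9 CPM in replicate 2. The log2 fold change of Rbfox1 was -0.11 ± 0.23 (SE; edgeR adjusted p = 0.87). Its 95% interval of -0.59 to 0.37 spans folds from 0.666 to 1.29, the widest range of the 9.

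**Figure D2:**
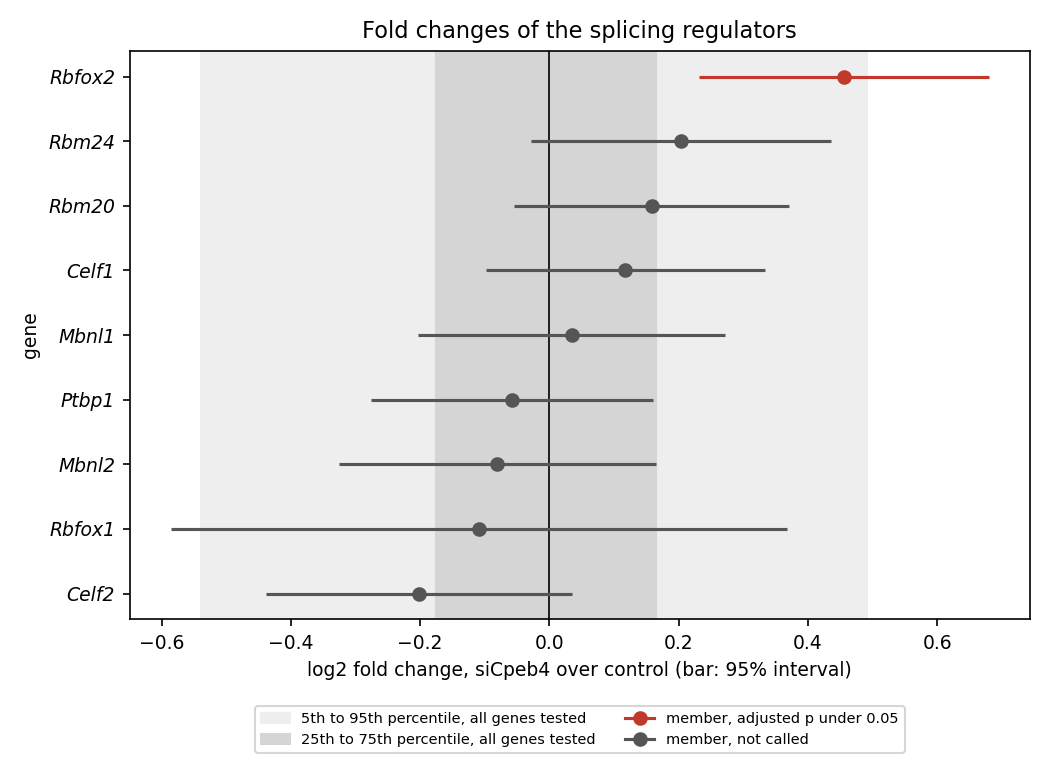
Log2 fold change of each regulator, siCpeb4 over control (x axis), with its 95% interval as a bar. Grey bands give the middle of all 11335 genes tested, from -0.18 to 0.17 for the 25th to 75th percentile and from -0.54 to 0.49 for the 5th to 95th. Only the interval of Rbfox2 excludes 0, and that of Rbfox1 is the widest.

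The muscleblind proteins MBNL1 and MBNL2 promote the splicing pattern of mature muscle, and their sequestration by repeat RNA underlies myotonic dystrophy. Mbnl1 (ENSRNOG00000014076) had 92.7 and 100.3 CPM in siCpeb4 libraries, against 95.2 and 89.2 CPM in controls. Mbnl2 (ENSRNOG00000010737) had 94.1 and 108 CPM in siCpeb4 libraries, against 98.4 and 111 CPM in controls. For both genes the groups overlapped. The log2 fold change was 0.03 ± 0.11 (SE; 95% interval -0.20 to 0.27) for Mbnl1. For Mbnl2 it was -0.08 ± 0.12 (SE; 95% interval -0.33 to 0.17). In folds, the intervals reached 1.21 at the upper end for Mbnl1 and 0.798 at the lower end for Mbnl2.

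CELF1 and CELF2 are abundant in the fetal heart and oppose MBNL proteins on shared exons. Celf1 (ENSRNOG00000010379) had 220 and 227 CPM in siCpeb4 libraries, against 196 and 208 CPM in controls. Celf2 (ENSRNOG00000023661) had 105 and 116 CPM in siCpeb4 libraries, against 119 and 131 CPM in controls. The groups did not overlap for either gene, with Celf1 higher and Celf2 lower in siCpeb4 libraries. The nearest libraries differed by 0.0792 for Celf1 and 0.0344 for Celf2 on the log2 scale, less than the largest gaps within a group, 0.0844 for Celf1 and 0.147 for Celf2. Neither passed, with log2 fold changes of 0.12 ± 0.10 (SE; edgeR adjusted p = 0.641) for Celf1 and -0.20 ± 0.11 (SE; edgeR adjusted p = 0.41) for Celf2.

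RBM20 is best known from a rat strain that lacks it and makes giant titin, and its human mutations cause dilated cardiomyopathy. Rbm20 (ENSRNOG00000014705) had the most counts of the 9 regulators, 2366 and 2797 in siCpeb4 libraries and 2319 and 1583 in controls. Its level was 484 and 473 CPM in siCpeb4 libraries, against 395 and 445 CPM in controls. Both siCpeb4 libraries were above both controls, but by 0.09 at the nearest on the log2 scale, less than the gap of 0.17 between the controls. The log2 fold change was 0.16 ± 0.10 (SE; 95% interval -0.05 to 0.37; edgeR adjusted p = 0.485). The exact 95% Poisson intervals of the controls, 380 to 412 CPM in replicate 1 and 424 to 468 CPM in replicate 2, did not overlap, so the controls differed by more than counting error.

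RBM24 is a muscle-enriched splicing factor needed for sarcomere assembly in mice. Rbm24 (ENSRNOG00000046547) had 223 and 209 CPM in siCpeb4 libraries, against 169 and 199 CPM in controls. The groups did not overlap, and the nearest libraries differed by 0.07 on the log2 scale, against 0.24 between the controls. Its log2 fold change of 0.20 ± 0.11 (SE) had the smallest p of the 8 uncalled regulators (edgeR adjusted p = 0.392). The value depended on single libraries, at 0.08 without control replicate 1 and 0.33 without control replicate 2. It was 0.15 without siCpeb4 replicate 1 and 0.27 without siCpeb4 replicate 2.

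PTBP1, also known as hnRNP I, falls as muscle cells and neurons differentiate. Ptbp1 (ENSRNOG00000010448) had 213 and 243 CPM in siCpeb4 libraries, against 239 and 227 CPM in controls, and the controls lay between the siCpeb4 libraries. The log2 fold change was -0.06 ± 0.11 (SE; 95% interval -0.28 to 0.16; edgeR adjusted p = 0.851).

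Across the 9 regulators, 5 had groups that did not overlap, with 4 higher (Rbfox2, Rbm20, Rbm24 and Celf1) and 1 lower (Celf2) in siCpeb4 libraries. That is 55.6% of them, near the 46.0% of all genes tested, of which 26.5% were higher in siCpeb4 libraries. The count of non-overlapping groups is thus no result about these genes. The levels of different regulators were not ranked against each other, since coding lengths for these counts were not used here.

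**Figure D3:**
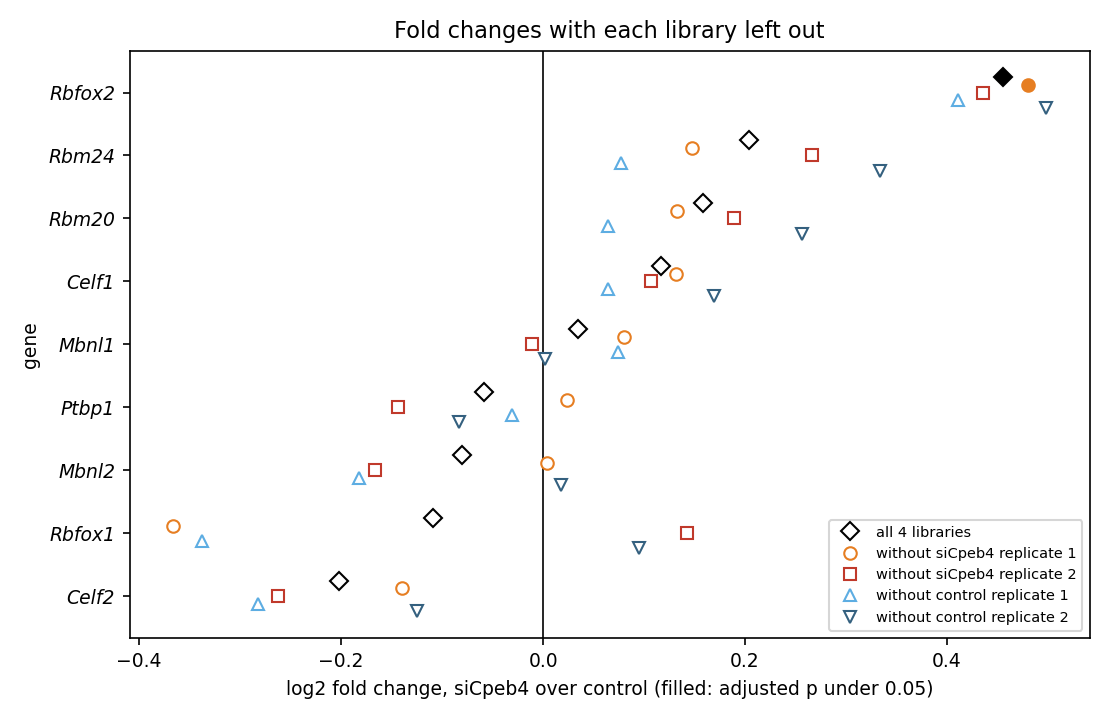
Log2 fold change of each regulator, siCpeb4 over control (x axis), with all 4 libraries and with each library left out in turn. Filled symbols have an edgeR adjusted p under 0.05, and these are Rbfox2 with all libraries and without siCpeb4 replicate 1. Rbfox1, Mbnl1, Mbnl2 and Ptbp1 cross 0.

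The balance between paralogs was also read within each library, where the ratio of 2 counts needs no scaling. The ratio of Rbfox2 to Rbfox1 counts was 9.39 and 13.8 in siCpeb4 libraries, against 8.54 and 6.72 in controls. The ratio was higher in both siCpeb4 libraries, and its replicates spread widely. The ratio of Celf2 to Celf1 counts was 0.479 and 0.512 in siCpeb4 libraries, against 0.608 and 0.631 in controls. Here the libraries of each group lay close together. The difference in mean log2 ratio, siCpeb4 minus control, was 0.59 for Rbfox2 over Rbfox1 and -0.32 for Celf2 over Celf1. With 2 libraries against 2, the two-sided exact permutation test gave p = 0.333 for both, the smallest p this design allows. The ratio of Mbnl2 to Mbnl1 counts was 1.02 and 1.07 in siCpeb4 libraries, against 1.03 and 1.25 in controls, and the groups overlapped (difference -0.12; exact permutation p = 0.667).

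**Figure D4:**
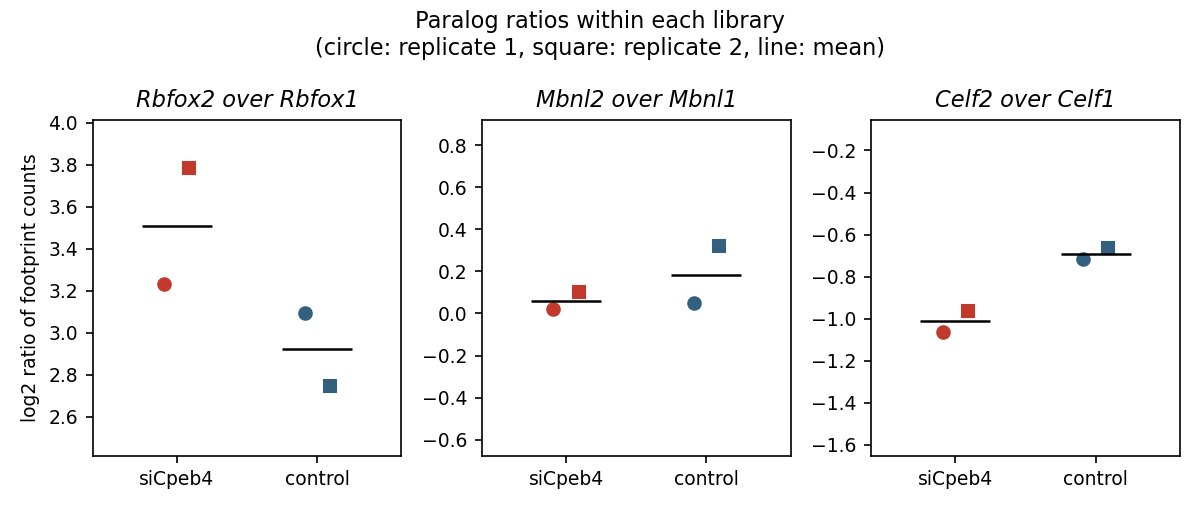
Log2 ratio of footprint counts of 2 paralogs within a library (y axis, each panel spanning the same range around its own mean) for siCpeb4 and control libraries. Circles are replicate 1, squares replicate 2 and lines the group mean. The means differ by 0.59, -0.12 and -0.32 from left to right, and the groups overlap only for Mbnl2 over Mbnl1.

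Among 11 relatives of these proteins, 6 could be tested, 2 rose and none fell. Of all genes tested, 1.54% were called higher and 1.87% lower, and 2 calls among 6 genes are too few to set the relatives apart. None of the 6 was lower by DESeq2, limma-voom or an unadjusted edgeR p under 0.05 either. Their median log2 fold change was -0.02. Ptbp2, the paralog of Ptbp1 that is high in neurons and whose mRNA is kept low by PTBP1 through skipping of one exon, rose 1.78-fold. It had 114 and 120 CPM in siCpeb4 libraries, against 58.8 and 70.9 CPM in controls, and the groups did not overlap. Its log2 fold change was 0.83 ± 0.12 (SE; edgeR adjusted p = 0.000273), and it stayed called without each library in turn (adjusted p up to 0.0121). Over the same libraries Ptbp1 itself had the log2 fold change of -0.06 given above, and Ptbp3, the third paralog, had one of -0.19 ± 0.14 (SE; edgeR adjusted p = 0.557). Whether Ptbp1 and Ptbp2 differ in response was not tested.

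Rbm38, the paralog of Rbm24 and a target of p53, rose 1.37-fold. It had 123 and 114 CPM in siCpeb4 libraries, against 79.6 and 91.2 CPM in controls, with no overlap (log2 fold change 0.45 ± 0.12, SE; edgeR adjusted p = 0.0373). Rbm38 missed the threshold with DESeq2 (adjusted p = 0.121). It also missed it in edgeR when control replicate 1 (adjusted p = 0.469), siCpeb4 replicate 1 (0.135) or siCpeb4 replicate 2 (0.0508) was dropped. Raver1, a cofactor of PTBP1, had a log2 fold change of 0.15 ± 0.12 (SE). The neuronal relatives had next to no counted footprints. Rbfox3 and Celf6 were listed at 0 in every library, and Celf3, Celf4 and Celf5 had at most 4 counts in any library, too few to test. A listed 0 need not mean that a gene is silent, since widely expressed genes such as Rbm39 and Hnrnpc were also at 0 in every library.

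In 4 wider lists few genes passed, beside the 3.41% called of all genes tested. Of 29 other splicing regulators, 23 were tested, none rose and 1 fell. The gene that fell was Rbpms2, an RNA-binding protein of heart and smooth muscle. At an unadjusted edgeR p under 0.05, 1 of the 23 was higher and 2 were lower, and DESeq2 and limma-voom called none higher. Rbpms2 had 23.7 and 17.1 CPM in siCpeb4 libraries, against 30.7 and 40.0 CPM in controls (log2 fold change -0.81 ± 0.19, SE; edgeR adjusted p = 0.0172). Rbpms2 missed the threshold with DESeq2 (adjusted p = 0.0741), and in edgeR when control replicate 2 (adjusted p = 0.163) or siCpeb4 replicate 2 (0.203) was dropped. Rbm5, a splicing factor that promotes apoptosis, had a log2 fold change of 0.32 ± 0.11 (SE; edgeR adjusted p = 0.107). Esrp2, an epithelial splicing factor, had 3 and 6 counts in siCpeb4 libraries and 12 and 7 in controls and did not pass.

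The SR proteins bind exonic enhancers and promote exon inclusion, and their kinases SRPK and CLK control their activity. Of 19 tested genes in this list, edgeR called none, and 3 had an unadjusted p under 0.05 (16.1% of all genes tested did). DESeq2 and limma-voom called none of them either. Their median log2 fold change was -0.14 and 13 were negative. Of all 11335 genes tested, 5726 were negative, with a median of -0.00310. Whether the SR list differs from all genes was not tested. Srsf2 had 142 and 140 CPM in siCpeb4 libraries, against 179 and 163 CPM in controls (edgeR adjusted p = 0.13). Srsf6 had 111 and 119 CPM in siCpeb4 libraries, against 138 and 138 CPM in controls (edgeR adjusted p = 0.165). Of 17 tested hnRNP genes, edgeR, DESeq2 and limma-voom called none, 2 had an unadjusted edgeR p under 0.05, and the median was 0.02. Hnrnpa3 (-0.53 ± 0.22) and the abundant Hnrnpu (0.21 ± 0.10, SE) had the smallest p. Hnrnpab, Hnrnpc and Hnrnph3 were listed at 0 in every library, Hnrnpa1 had 1 count in all, and none of these passed the low-count filter.

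The last list held 30 muscle genes with exons known to be regulated by these proteins, of which 28 were found and tested. Gene counts cannot show which exons were used, so these values concern total footprints only. In this list 3 rose and none fell (10.7% called), and the median was 0.03. Of all genes tested, 3.41% were called, with 1.54% higher and 1.87% lower, and 3 calls are too few to set the list apart. At an unadjusted edgeR p under 0.05, 1 was lower, and DESeq2 and limma-voom called none lower. Pdlim3, an actinin-binding protein of the Z-disc, had 326 and 330 CPM in siCpeb4 libraries, against 252 and 221 CPM in controls (log2 fold change 0.44 ± 0.10, SE; edgeR adjusted p = 0.0175). The calcium channel gene Cacna1c had 390 and 385 CPM in siCpeb4 libraries, against 275 and 297 CPM in controls (edgeR adjusted p = 0.0252). The Z-disc gene Nexn had 895 and 1019 CPM in siCpeb4 libraries, against 738 and 724 CPM in controls (edgeR adjusted p = 0.0499). The groups did not overlap for any of the 3. Across the list this held for 14 of the 28 tested, and for 46.0% of all genes tested. None of the 3 calls held under every omission of a library. The edgeR adjusted p reached 0.258 for Pdlim3 when control replicate 2 was dropped, and 0.339 for Cacna1c and 0.278 for Nexn when control replicate 1 was dropped. Nexn, which lies at the threshold, also missed it with RLE scaling (edgeR adjusted p = 0.0537).

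The other targets of RBM20 in the list did not pass. Ryr2, the calcium release channel, had a log2 fold change of -0.10 ± 0.10, Camk2d, a calcium-dependent kinase, one of 0.09 ± 0.11, and Ldb3, a Z-disc protein, one of 0.02 ± 0.11 (SE). Mef2d, a transcription factor with a muscle-specific exon, had 0.41 ± 0.12 (SE; edgeR adjusted p = 0.063). Pkm, whose alternative exons are set by PTBP1, had -0.41 ± 0.13 (SE; edgeR adjusted p = 0.0928).

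**Figure D5:**
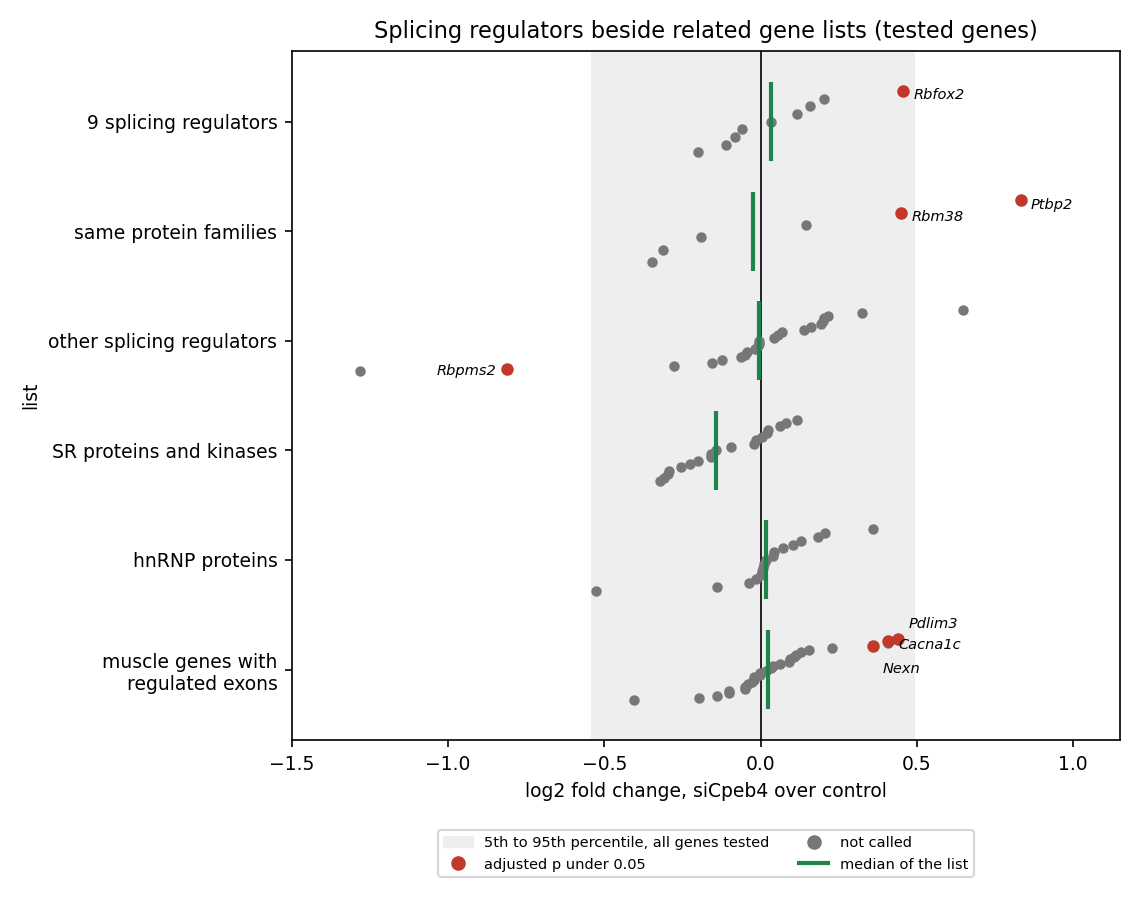
Log2 fold change, siCpeb4 over control (x axis), of each tested gene in 6 lists, with the 9 splicing regulators on top. Red points with names have an edgeR adjusted p under 0.05, green bars are list medians and the grey band spans the 5th to 95th percentile of all genes. Ptbp2 lies furthest right at 0.83, and the SR protein list has its median at -0.14.

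The genes most like Rbfox2 were sought over all genes tested, by the root mean square difference of log2 CPM centred per gene over the 4 libraries. They were Hif1a (0.00622), which encodes an oxygen-regulated transcription factor, Gfm1 (0.0175), a mitochondrial elongation factor, and Crk (0.0185), an adaptor protein. Their log2 fold changes were 0.46, 0.46 and 0.48. With 4 libraries, close likeness of this kind is a description only.

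Other measures moved with the groups beside these results. The fibroblast marker sums given above were lower in both siCpeb4 libraries. Several regulators, among them Rbfox2, Mbnl1 and Ptbp1, are widely expressed and not restricted to myocytes. Which of the other regulators the non-myocytes express cannot be read from these bulk counts. The part of the fibroblast marker difference in the values of the regulators was not tested. Summed levels of 8 smooth muscle and pericyte markers were 6191 to 6586 CPM in siCpeb4 libraries and 5910 to 5965 CPM in controls. The endothelial markers summed to 336 to 375 CPM in siCpeb4 libraries and 343 to 381 CPM in controls, and the leukocyte markers to 631 to 714 CPM in siCpeb4 libraries and 590 to 817 CPM in controls, and both overlapped. The epicardial and mesothelial markers summed to 307 to 342 CPM in siCpeb4 libraries and 374 to 391 CPM in controls. Of the 33 genes tested in these 4 lists, edgeR and DESeq2 called none, and limma-voom called 1, an epicardial and mesothelial marker. At an unadjusted edgeR p under 0.05, none was higher and 3 were lower. Of the neuronal markers, Rbfox3 and Snap25 were listed at 0 in every library.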

How the data were processed

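The authors deposited raw footprint counts per Ensembl gene for each of 4 libraries, with no normalisation. The tools named per the submitters' processing notes are Bowtie2, STAR 2.7 and HTSeq 0.12, with the assembly Rnor_6.0. Their roles and the strand setting are not given in the sources used here, so overlapping and antisense genes are uncertain. The file names state uniquely mapped reads of 29 to 34 nt, and 29 to 33 nt for siCpeb4 replicate 2. Genes with near-identical copies are uncertain under unique mapping. The 5 HTSeq summary rows were left out (no feature, 4.42% to 4.63%; ambiguous, 0.0798% to 0.0916%).

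Levels are counts scaled to a gene total of 1000000 per library (CPM). The test was the two-sided quasi-likelihood F-test of edgeR 4.0.16 (R 4.3.3) over all 11335 genes passing filterByExpr (minimum count 10), with TMM factors, group as the only term, Benjamini-Hochberg adjustment and a threshold of 0.05. Standard errors come from the F statistic. The 16 alternatives include DESeq2 1.42.0 and limma-voom (limma 3.58.1). Nothing in the labels ties replicates to separate cultures, and the p-values therefore cover only the spread among these 4 libraries, possibly technical. Replicates differed by more than sampling noise (chi-square per degree of freedom 5.12 for siCpeb4 and 2.91 for control).

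The regulators, lists and tests were chosen with earlier results of these data known. Named genes are the regulators, Cpeb4, from each related list the called genes and the 2 next by p, the marker with the most counts of a list (Myh6, Col1a1), and the 3 genes most like a called regulator. Ryr2, Camk2d, Ldb3, Fn1, Fbln2, the marker genes named at 0, the neuronal relatives, Rbm39 and the hnRNP genes that missed the filter are named beyond that rule, chosen after their values were seen. Coding lengths, proteins and coordinates of the build of the files were not used here, so the planned ranking per kilobase and comparison of paralog proteins were not made. Some marker genes are not reported here.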

Additional observations from a re-analysis of the deposited data

How the results depend on the processing

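Rbfox2 kept its direction under all 16 alternatives and its call under 13, with log2 fold changes from 0.41 to 0.50 when 1 library was left out. The 8 other regulators passed under none of the alternatives that gave a value (127 values, 6 of the opposite sign, all with 1 library left out). Their log2 fold changes with 1 library left out ranged from -0.37 to 0.14 for Rbfox1, -0.0113 to 0.0797 for Mbnl1, -0.182 to 0.0173 for Mbnl2, -0.144 to 0.0237 for Ptbp1, 0.06 to 0.26 for Rbm20, 0.08 to 0.33 for Rbm24, 0.06 to 0.17 for Celf1 and -0.28 to -0.12 for Celf2. DESeq2 gave no adjusted p for Rbfox1. The alternative with a threshold of 0.10 is the main fit itself, so Rbfox2 kept its direction and call there by construction. The difference in paralog ratio ranged from 0.31 to 0.86 for Rbfox2 over Rbfox1, -0.259 to 0.0133 for Mbnl2 over Mbnl1 and -0.37 to -0.27 for Celf2 over Celf1. Cpeb4 was called throughout. Over all genes, 174 were higher and 212 lower. These counts were 77 and 115 in DESeq2, 274 and 355 at a threshold of 0.10, 254 and 352 without the low-count filter, and 79 to 133 and 133 to 185 with 1 library left out. In the related lists, 5 genes were higher and 1 lower (6.45% of 93 tested, against 3.41% of all genes tested). These were 2 higher after thinning, 0 lower in DESeq2, 2 lower at a threshold of 0.10, and 2 to 3 higher and 0 to 2 lower with 1 library left out. The deviations of same-numbered libraries from their group means had a correlation of -0.11 across genes, and the numbers are not shown to pair the samples. With the replicate number as a block, 179 genes were higher and 224 lower and the adjusted p of Rbfox2 was 0.0212 (edgeR). Of the called genes among the regulators, Cpeb4 and the related lists, the block ended only the call of Nexn (adjusted p = 0.103), and thinning ended those of Nexn (0.0807), Rbm38 (0.0554) and Cacna1c (0.0567). A crossed block, chosen after seeing the data, gave 202 and 279. The causes were not tested, beyond fewer libraries or a wider set of genes or threshold where the alternative is built that way. Rbfox1 had the fewest counts of the 9 regulators, 67 to 88 per library.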
